A study of Mus musculus with 9 samples.

Results

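Cytosolic ribosomal protein genes were examined in mouse embryonic stem cells (mESC). The members were chosen by name, as protein-coding genes of the deposited table whose symbol begins with Rpl or Rps and goes on with a number and, at most, a letter (a, l or x) and a further digit, together with Rplp0, Rplp1, Rplp2 and Rpsa. The rule gave 85 genes of 29069 in the table, 19018 of which were annotated as protein coding. Of these 85, 46 carried names of the large (60S) subunit, 33 carried names of the small (40S) subunit, and 6 were paralogues, that is genes for a close relative of another member's protein (Rpl3l, Rpl7l1, Rpl10l, Rpl22l1, Rpl39l and Rps27l). All 85 passed the filter on low values, a mean above 5 over all samples. Rps3a2 and Rps3a3 were protein coding in the deposited table, but the GENCODE M21 annotation lists them as processed pseudogenes of the Rps3a family. The row named Rpl24 carries an identifier (ENSMUSG00000022601) that GENCODE M21 assigns to Zbtb11, a zinc finger gene next to Rpl24, so its values of 682 to 1033 may not be those of a ribosomal protein gene. It was counted as the naming rule had it, among the 60S names.

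Total RNA was sequenced from cells of the established mES-D3 line, at passages 5 to 8 and adapted to growth without feeder cells, that had spent 24 h in a given medium. There were 3 media with 3 samples each and 1 dish per sample. Ground-state medium (GS) was serum-free NDiff N2B27 with the MEK inhibitor PD0325901 at 1 μM, the GSK-3 inhibitor CHIR99021 at 3 μM and leukaemia inhibitory factor (LIF) at 20 ng/mL. Differentiation medium (DM) was DMEM with glucose at 1 g/L, glutamine at 4 mmol/L, 2-mercaptoethanol at 0.1 mmol/L and 10% fetal bovine serum (FBS). The NO medium was DM to which DETA/NO, a donor of nitric oxide, was added at 250 μM. GS thus differed from the other media in base medium, serum, inhibitors and LIF at once, whereas NO and DM differed in DETA/NO. The methods of the study speak in general of independent experiments, and the labels do not state it for these samples, so the p-values measure the spread between these samples, which may be technical in part.

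The ribosome is the machine that translates mRNA into protein, and each subunit consists of ribosomal RNA and a set of ribosomal proteins that are, with few exceptions, encoded by a single active gene each. Because the proteins are needed in equal numbers, their mRNAs are among the most abundant of growing cells, and most of them begin with a C followed by a run of pyrimidines, the 5′ terminal oligopyrimidine (TOP) motif, through which the mTOR pathway and the protein LARP1 control their translation. Processed pseudogenes of these genes are numerous in mammalian genomes, so short reads from ribosomal protein mRNAs often match more than 1 place.

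The last property bore on how the members were measured, since the authors did not count reads that were ambiguous by position or by gene. In the GENCODE M21 transcripts, between 0 and 98.65% of the 50-base windows of a member also occurred in another annotated gene, with a median of 53.68% over the 85 members, and 49 members shared 50% or more of their windows. Rps27 had 98.65%, Rpl30 had 76.39% and Rps2 had 79.03%, the last shared among 71 genes. Rpl3l and Rpl39l shared none. In addition, exons of 38 members overlapped another annotated gene, and use of the strand in counting was not stated. The level of such a member is therefore uncertain. A comparison of the same member between samples concerns the same transcript, but which part of it could be counted also depends on the read lengths of each library, which were not examined here.

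The TOP motif was looked for at the start sites of RefSeq (GRCm38.p6), where 63 of the 85 members had an entry. A start was counted when its first base was C and at least 4 further pyrimidines (C or T) followed on the transcribed strand. Such a start was found for 13 of 63 members (20.6%) and for 813 of 27025 genes in all (3.01%). It was found for 0 of 6 paralogues, 2 of 10 translation factors known for TOP mRNAs and 0 of 35 ribosome biogenesis factors with an entry. An annotated start can lie some bases from the true one, and a run of at least 8 pyrimidines within 15 bases of the start was found for 42.9% of the members and 13.9% of all genes. The stretches shown here are those of 3 members with a low p in NO against GS (Rps15a, Rpl22 and Rpl22l1), and of 3 further members with the motif (Rpl35a, Rps6 and Rps27) for comparison. Each gives 15 bases before and 15 bases from the annotated start, 5′ to 3′, with an uninterrupted run of pyrimidines from the start in capitals. They lie, in the order shown, at chr7:118116133-118116162 (minus strand), chr16:33056467-33056496 (plus), chr4:86857353-86857382 (minus), chr3:90213634-90213663 (minus), chr4:152325711-152325740 (plus) and chr3:28805493-28805522 (plus).
Rps15a: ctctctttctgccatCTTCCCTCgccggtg
Rpl35a: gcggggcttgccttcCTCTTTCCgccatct
Rps6: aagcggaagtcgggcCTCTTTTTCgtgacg
Rps27: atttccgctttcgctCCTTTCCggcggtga
Rpl22: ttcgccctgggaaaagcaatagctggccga
Rpl22l1: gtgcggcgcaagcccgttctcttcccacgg
Rps15a, Rpl35a, Rps6 and Rps27 begin with 8, 8, 9 and 7 pyrimidines in a row. The start shown for Rpl22 has none, and neither does its other annotated start. Rpl22l1 has none at its annotated start, a G, although a run of pyrimidines begins at the next base. Where a gene has several entries, 1 start was enough for it to be counted.

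The values used were normalised counts, that is whole-number values that the authors had scaled by a factor per sample. The totals of the samples lay between 18290445 and 20508679. Those of the NO samples, at 18290445 to 18707086, lay below those of all GS and DM samples, at 18969825 to 20508679. The depth behind the values was estimated from the spacing of low values at 14307523 to 27061091 assigned reads per sample. The 8 ES cell markers were detected in every sample, whereas fibroblast markers, which would mark remaining feeder cells, summed to between 318 and 495 over 7 genes, Col1a1 among them at 13 to 88 and Lum at 0 in 5 of 9 samples. Single fibroblast markers differed between media in both directions. Thy1 was called higher in DM and NO against GS, Col1a1 higher in NO against GS and against DM, and Pdgfrb lower in NO against GS. NO replicate 2 stood apart on the first principal component of all genes, at 131 against 25.9 and 67.1 in the other NO samples and -49.1 to -26 in GS and DM. In that sample the 8 ES cell markers summed to 47015, against 76590 to 88937 in the other 8 samples, and 6 primitive endoderm markers summed to 708, against 111 to 350. Trophoblast markers summed to 863 there, against 354 and 435 in the other NO samples, 692 to 739 in GS and 334 to 428 in DM. They did not change together, since Cdx2 and Eomes were called lower and Hand1 higher in NO against GS. In DM against GS, Cdx2, Eomes and Tfap2c were called lower. The part of these differences in the results on ribosomal protein genes was not tested, and the main results in NO are given with and without NO replicate 2. In these bulk samples, fewer cells of a type and less RNA per cell cannot be told apart.

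The members were among the most abundant mRNAs in every medium. Their summed normalised counts made up 5.96%, 5.03% and 5.34% of the total in GS replicates 1, 2 and 3. In DM the share was 4.88%, 4.66% and 6.92%, and in NO it was 5.27%, 4.24% and 5.47%. The means were 5.44% ± 0.476 (SD, n = 3) in GS, 5.49% ± 1.24 in DM and 5.00% ± 0.661 in NO, so the media differed by less than the spread between samples. The high share of DM replicate 3 owed much to Rps2, which made up 1.28% of that sample and 0.177% to 0.667% of the others.

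Per kilobase of transcript, Rps2, a protein of the mRNA entry region of the 40S subunit, had the highest level in GS at 70398, and it kept rank 1 in DM and NO. At the other end stood Rpl3l, the striated-muscle paralogue of Rpl3, at 25.2 per kilobase, and Rps3a2 at 133. Rpl3 itself was at 35898, Rpl8 at 37908 and Rplp0 at 32590. Lengths are those of 1 representative transcript per gene, and for a few members, such as Rps15a with an annotated length of 5130 bases, the level per kilobase is a low estimate. Of the 85 members, 80 had values above 500 in every sample, so counting error was small for them.

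The median log2 fold change of the 85 members was -0.13 in DM against GS, -0.36 in NO against GS and -0.17 in NO against DM, which correspond to -8.34%, -22.2% and -10.9%. A negative value was found for 70, 77 and 72 members, respectively. Without the row named Rpl24, a choice made after the data had been seen, the medians were -0.12, -0.37 and -0.17. The medians over all 18156 tested genes were close to 0 (-0.00068, -0.016 and 0.0010), but those over the 4455 genes with a mean above 1000 were -0.038, -0.18 and -0.13, so abundant genes in general had lower values in NO. In NO against GS, 90.6% of the members and 69.7% of all genes with a mean above 1000 were below 0. The comparisons share samples, since GS enters the first and the second, NO the second and the third.

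By sample, the median difference of the members from the mean of GS was 0.11, -0.11 and 0.0081 on the log2 scale in GS replicates 1, 2 and 3. It was -0.16, -0.30 and 0.096 in DM and -0.19, -0.56 and -0.28 in NO. All 3 NO samples therefore lay below all 3 GS samples, whereas DM replicate 3 lay among the GS samples. NO replicate 2 held the lowest of the 9 values for 47 of the 85 members, and DM replicate 3 held the highest for 32. Without NO replicate 2, the median in NO against GS was -0.22 and the median in NO against DM was -0.076. Without NO replicate 2 and DM replicate 3 together, a choice made after the data had been seen, the latter was 0.013 and only 37 members remained below 0.

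**Figure D1:**
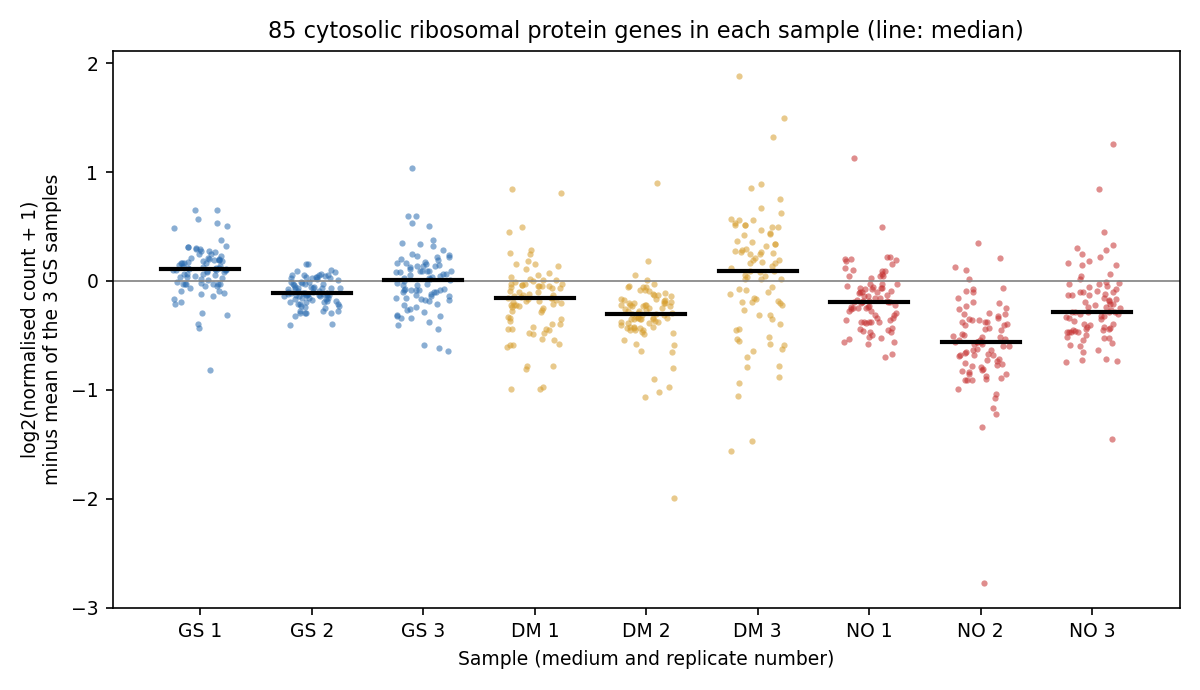
Each point is 1 of the 85 cytosolic ribosomal protein genes in 1 sample, as log2(normalised count + 1) minus the mean of the 3 GS samples for that gene, and the black lines are the medians. The medians of the NO samples lie at -0.19, -0.56 and -0.28, below those of the GS samples, and DM replicate 3 has a median of 0.096 with the widest scatter.

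The size of this difference depended on the scaling of the samples. Scaling all samples to equal totals gave a median of -0.25 in NO against GS, and quantile normalisation gave -0.16, with 58 members below 0. The medians over all genes moved to 0.092 and -0.11 under these scalings, so that relative to all genes the members stood at -0.35 with the deposited scale, at -0.35 with equal totals and at -0.048 with quantile normalisation. Size factors computed without the members and the most abundant 1% of genes left the median at -0.37. In NO against DM the median was -0.034 with quantile normalisation, where the median of all genes was lower, at -0.084.

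In DM against GS, 0 of 85 members passed an adjusted p of 0.05 (limma, Benjamini-Hochberg over all 18156 genes tested), where 2.32% of all genes were called lower and 4.37% higher. At an unadjusted p under 0.05, 2 members were lower and 1 was higher, against 8.65% and 11.2% of all genes. The smallest p was that of Rpl30, a 60S protein whose yeast form also binds its own transcript. Its normalised counts were 3110, 3029 and 3375 in GS and 2262, 2457 and 2158 in DM. All 3 DM values were lower than the GS values. The log2 fold change was -0.47 ± 0.13 (SE), for an adjusted p of 0.051 (limma). Rps3a3, 1 of the copies annotated as a pseudogene, had 2980, 3032 and 3707 in GS and 2888, 1592 and 1679 in DM (log2 fold change -0.71 ± 0.22, adjusted p of 0.0836, limma). The 3 values of DM lay below those of GS without overlap for 6 members (7.06%), where 13.5% of all genes did so, and above them for 1 member, where 16.2% of all genes did so. That member was Rpl3l, with 49, 34 and 21 in GS and 58, 62 and 94 in DM and an adjusted p of 0.116 (limma), at counts low enough for sampling error to matter.

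In NO against GS, 4 of 85 members (4.71%) were called lower and 0 higher, against 6.64% of all genes called lower and 13.4% called higher. Among the genes with a mean above 1000, 13.6% were called lower. The members called were thus no larger a share than the background. At an unadjusted p under 0.05, 23 members were lower and 1 was higher, where 14.6% and 20.1% of all genes were. The 3 values of NO lay below those of GS without overlap for 26 members (30.6%) and above them for 0 members, where 18.3% and 20.9% of all genes did so. For neither count was the share among genes with a mean above 1000 computed, and those genes had lower values in NO in general. Neither count is given here without NO replicate 2. Of these 26, 18 were 60S members, 6 were 40S members and 2 were paralogues.

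**Figure D2:**
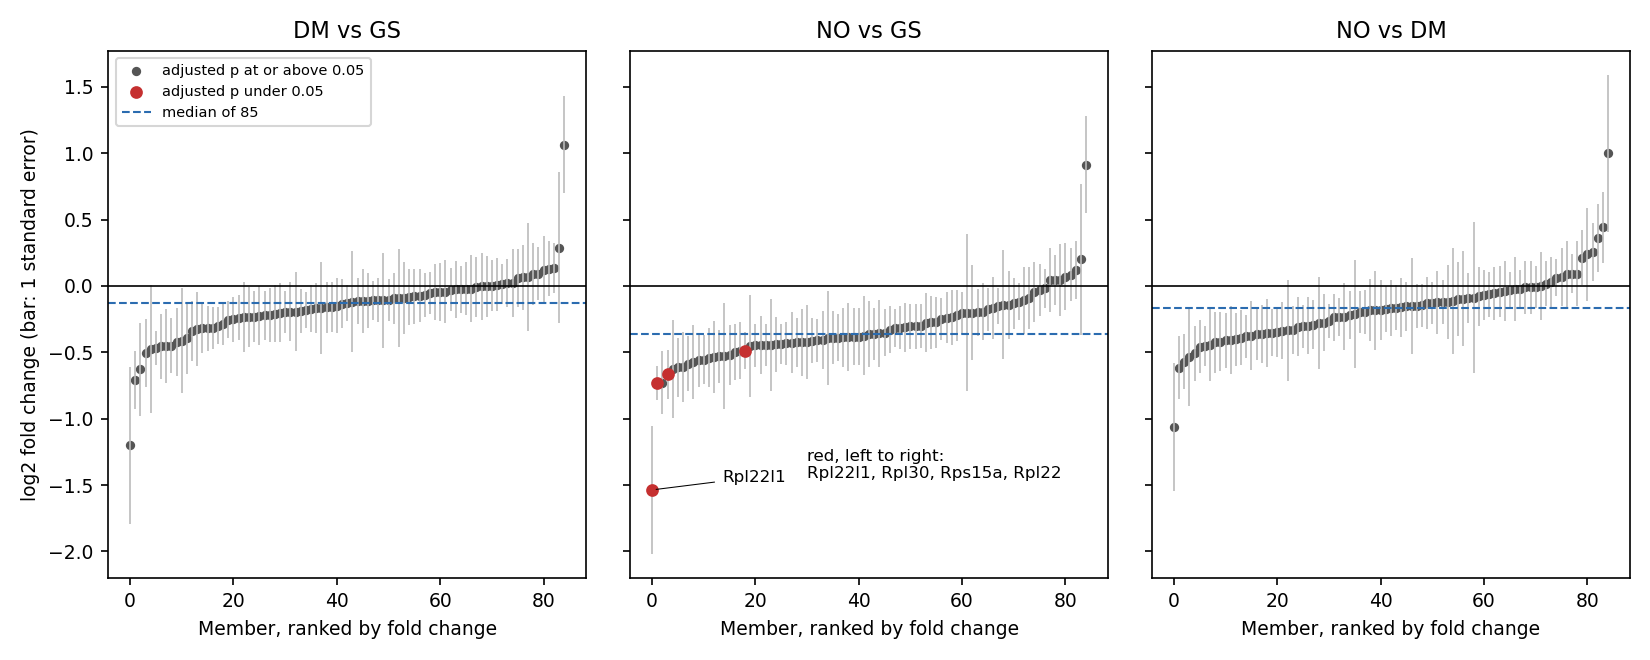
Log2 fold changes of the 85 members in the 3 comparisons, ranked within each panel, with bars of 1 standard error from limma, red points for an adjusted p under 0.05 and a dashed line at the median. The medians lie at -0.13, -0.36 and -0.17, and red points appear in the panel of NO against GS alone (Rpl22l1, Rpl30, Rps15a and Rpl22).

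Rpl30 (ENSMUSG00000058600, chr15:34440505-34443640, minus strand, GRCm38) had normalised counts of 2141, 1710 and 1896 in NO, all below the 3 values of GS given above. The means were 3171 ± 181 (SD, n = 3) in GS, 2292 ± 152 in DM and 1916 ± 216 in NO. Its log2 fold change in NO against GS was -0.73 ± 0.13 (SE), with an adjusted p of 0.00297 (limma). Rpl30 was also the 1 member of 85 that differed among the 3 media by the moderated F test, with an adjusted p of 0.00583 (limma), where 23.3% of all genes did. It was called in NO against GS under each of the 23 alternatives tried, including the fit without NO replicate 2 (log2 fold change -0.65). Its 76.39% of shared windows, with 17 genes, and overlaps with exons of other genes make its level uncertain.

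Rps15a (ENSMUSG00000008683, chr7:118104372-118116188, minus strand), a 40S protein whose start carries the run of 8 pyrimidines shown above, had 9015, 6993 and 7152 in GS, 5314, 5476 and 7971 in DM and 5426, 4082 and 5092 in NO. The NO values lay below those of GS without overlap, and 1 of the DM values lay among those of GS. Its log2 fold change in NO against GS was -0.67 ± 0.19, with an adjusted p of 0.0273 (limma). Without NO replicate 2 it was -0.54, with an adjusted p of 0.0812.

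Rpl22 and Rpl22l1 are a pair of paralogues for the same position on the 60S subunit, and RPL22 is known to bind the transcript of its paralogue and lower its level. Rpl22 (ENSMUSG00000028936, chr4:152325742-152334071, plus strand) had 11946, 9666 and 11684 in GS, 9730, 8471 and 9645 in DM and 8498, 7114 and 8096 in NO. Rpl22l1 (ENSMUSG00000039221, chr3:28805436-28807424, plus strand) had 1118, 1335 and 2135 in GS, 1333, 1260 and 709 in DM and 1126, 215 and 536 in NO. The NO values of Rpl22 lay below all of its GS values, whereas for Rpl22l1 the highest NO value lay just above the lowest GS value. In NO against GS the log2 fold change of Rpl22 was -0.49 ± 0.14, with an adjusted p of 0.0319 (limma). That of Rpl22l1 was -1.54 ± 0.48, the lowest of the members, with an adjusted p of 0.0435 (limma). Rpl22l1 was the single member past both an adjusted p of 0.05 and a 2-fold change. Both calls were lost without NO replicate 2, where the log2 fold changes were -0.41 (adjusted p of 0.0805, limma) and -0.92 (adjusted p of 0.119).

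**Figure D3:**
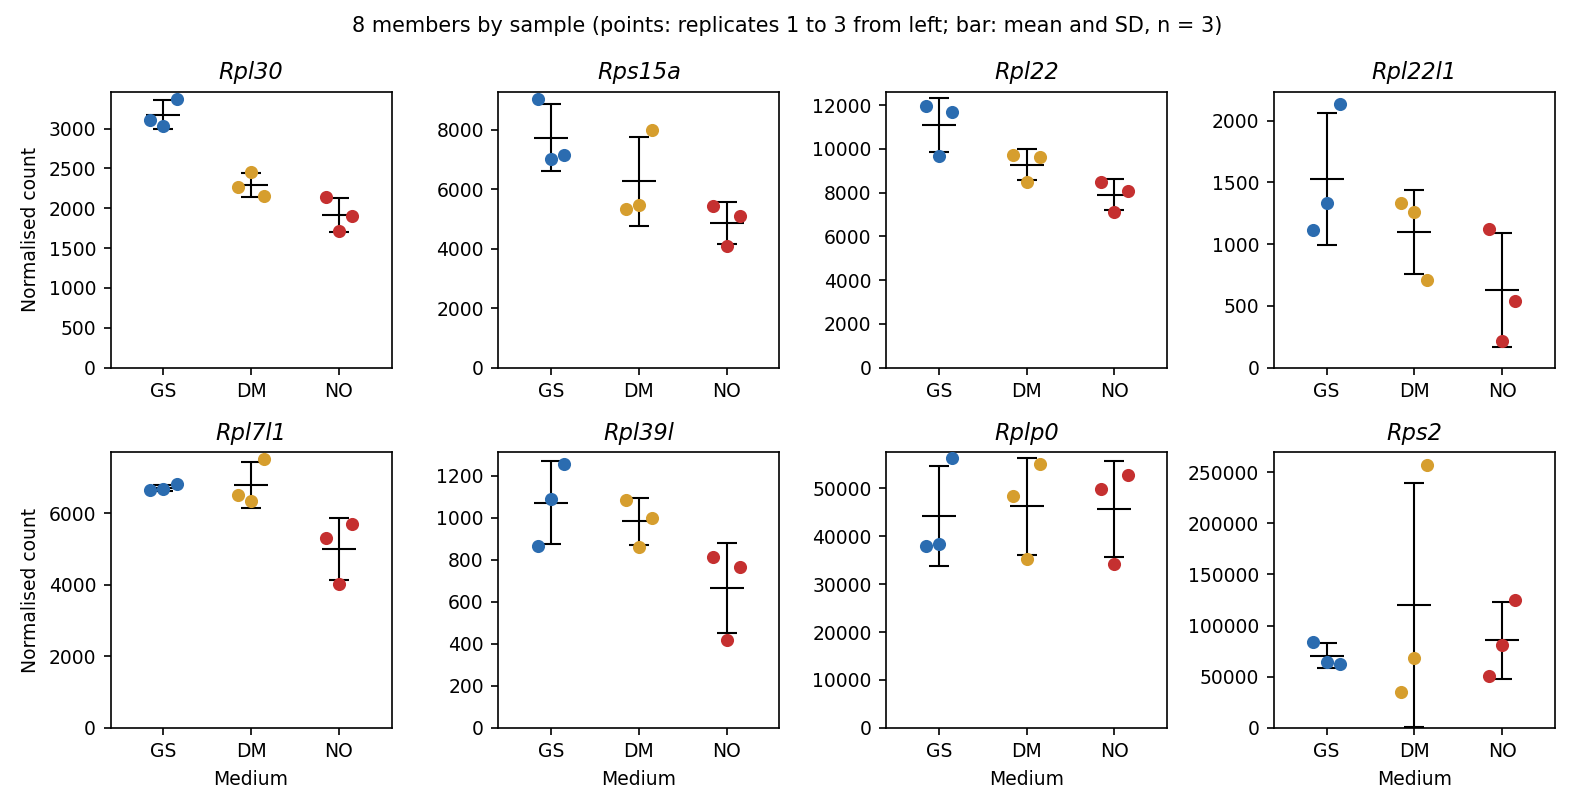
Normalised counts of 8 members in each sample (points, replicates 1 to 3 from left to right within a medium) with the mean and SD of the 3 samples, on axes that begin at 0. The NO values of Rpl30, Rps15a, Rpl22, Rpl7l1 and Rpl39l lie below all GS values, those of Rplp0 span the same range in each medium, and Rps2 reaches 256447 in DM replicate 3.

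In NO against DM, which differ in DETA/NO, 0 of 85 members passed an adjusted p of 0.05 (limma), where 5.24% of all genes were called lower and 9.01% higher. At an unadjusted p under 0.05, 7 members were lower and 0 higher, against 13.7% and 17.6% of all genes. The smallest p was that of Rpl7l1, a paralogue of Rpl7 known as a factor of 60S assembly in the nucleolus. It had 6637, 6666 and 6807 in GS, 6513, 6343 and 7524 in DM and 5302, 4018 and 5683 in NO. All 3 NO values lay below the 6 others, and the log2 fold change in NO against DM was -0.45 ± 0.15 (adjusted p of 0.0632, limma). Without NO replicate 2 it was -0.30 (adjusted p of 0.187, limma). Rpl8, a 60S protein close to the peptidyl transferase centre, had 30856, 30053 and 45514 in DM and 24565, 20960 and 25058 in NO (log2 fold change -0.57 ± 0.21, adjusted p of 0.0863, limma). For Rpl8 the fit without NO replicate 2 gave -0.49 (adjusted p of 0.22, limma). The 3 values of NO lay below those of DM without overlap for 8 members (9.41%) and above them for 0, where 15.3% and 18.1% of all genes did so.

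By subunit, the 46 members of the 60S had median log2 fold changes of -0.12, -0.39 and -0.19 in DM against GS, NO against GS and NO against DM, and 43 of them were below 0 in NO against GS. The 33 members of the 40S had medians of -0.16, -0.31 and -0.12, with 30 below 0 in NO against GS. In the fit without NO replicate 2 the medians in NO against GS were -0.24 for the 60S and -0.19 for the 40S. The calls in NO against GS were 2 in the 60S (Rpl30 and Rpl22), 1 in the 40S (Rps15a) and 1 among the paralogues (Rpl22l1). The fold changes within the 60S ranged from -0.73 to 0.12 in that comparison and those within the 40S from -0.67 to 0.20.

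Of the other paralogues, Rpl39l, a form of Rpl39 of the peptide exit tunnel known from testis and ES cells, had 863, 1090 and 1257 in GS, 1084, 862 and 1000 in DM and 814, 417 and 763 in NO. Its NO values lay below all others, but with a log2 fold change of -0.73 ± 0.24 in NO against GS the adjusted p was 0.0514 (limma), and without NO replicate 2 the log2 fold change was -0.42 (adjusted p of 0.134). Its parent Rpl39 had 3451, 3270 and 5692 in GS, 3588, 3348 and 1444 in DM and 4260, 2151 and 3100 in NO, and the media overlapped. Rpl3l had 73, 42 and 80 in NO (log2 fold change 0.91 ± 0.36 against GS, adjusted p of 0.0975, limma) and was called higher without NO replicate 2 (log2 fold change 1.20, adjusted p of 0.0473). Its parent Rpl3, at 52247, 45349 and 47898 in GS and 46343, 27416 and 38464 in NO, stood far higher per kilobase. Rpl10l had 2349, 2064 and 1909 in GS and 1457, 1588 and 2018 in NO, and Rps27l, which is known as a target of p53, had 2619, 3145 and 5340 in GS and 3287, 3315 and 4444 in NO. For these last genes the media overlapped, and the log2 fold changes in NO against GS were -0.33 and 0.046. Over the 6 paralogues the median was -0.38 in NO against GS with 1 called, and over their 7 parents (Rps4x is the parent of a paralogue that was not analysed here) it was -0.41 with 1 called (-0.29 and -0.20 without NO replicate 2).

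The P-stalk, which recruits the translation factors to the ribosome, consists of Rplp0, Rplp1 and Rplp2. Rplp0, often used as a reference gene in qPCR, had 38070, 38395 and 56305 in GS, 48438, 35193 and 55160 in DM and 49904, 34163 and 52833 in NO. The values spanned the same range in each medium, and the log2 fold changes were 0.064 ± 0.24 in DM against GS and 0.043 ± 0.24 in NO against GS (adjusted p of 0.918 and 0.922, limma). Within a medium, however, the highest value was 1.48 to 1.57 times the lowest. Rplp1 had means of 17289 ± 559 (SD, n = 3) in GS, 17573 ± 4964 in DM and 18745 ± 5554 in NO. Rplp2 had 22560, 16941 and 17944 in GS, 16720, 9095 and 32010 in DM and 14819, 11822 and 15548 in NO. The NO values of Rplp2 lay below those of GS, but with a log2 fold change of -0.44 ± 0.35 the adjusted p was 0.392 (limma). In each comparison 0 of the 3 stalk genes were called by limma, and 0 had an unadjusted p under 0.05.

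Rpl5 and Rpl11 form with 5S RNA the particle that can bind MDM2, the inhibitor of p53. Rpl5 had 8081, 7218 and 9562 in GS, 8864, 7194 and 5484 in DM and 8471, 4893 and 6040 in NO. Rpl11 had 11641, 9244 and 11984 in GS, 10119, 9293 and 11553 in DM and 10057, 5779 and 10041 in NO. In each medium the values overlapped with those of GS. The log2 fold changes in NO against GS were -0.39 ± 0.22 and -0.38 ± 0.21 (adjusted p of 0.242 and 0.227, limma). They were -0.20 and -0.12 without NO replicate 2, the lowest NO sample of both.

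Other members with known roles had a like pattern. Rps6, the substrate of the S6 kinases, had 7083, 5247 and 6272 in GS and 5019, 3519 and 5447 in NO (log2 fold change -0.43 ± 0.18, adjusted p of 0.124, limma). Rpsa, also known as the laminin receptor, had 49182, 36327 and 43532 in GS and 37694, 25105 and 39118 in NO (-0.36 ± 0.25, adjusted p of 0.345). Rps27a, which is made as a fusion with ubiquitin, had 17943, 16093 and 24333 in GS and 18218, 8216 and 14265 in NO (-0.57 ± 0.28, adjusted p of 0.164). In each of these genes NO replicate 2 held the lowest of the 9 values, and without it the log2 fold changes of Rps6, Rpsa and Rps27a were -0.24, -0.15 and -0.25. The 4 X-linked members, Rpl10, Rpl36a, Rpl39 and Rps4x, had a median of -0.40 in NO against GS (-0.21 without NO replicate 2) and 0 calls by limma, with 2 at an unadjusted p under 0.05. Rpl10 had 8501, 8788 and 10574 in GS and 8098, 5368 and 7673 in NO, without overlap (-0.41 ± 0.17, adjusted p of 0.106, limma), and its log2 fold change was -0.23 without NO replicate 2. Rps4x had 18009, 17629 and 22310 in GS and 18059, 13218 and 15793 in NO.

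The 8 members that line the exit tunnel or lie around its opening had medians of -0.26, -0.41 and -0.13 in DM against GS, NO against GS and NO against DM, and -0.23 in NO against GS without NO replicate 2. All 8 were below 0 in the first and the second, and 0 were called by limma, with 2 lower at an unadjusted p under 0.05 in NO against GS. Rpl31 had the smallest p, with 9180, 7530 and 7605 in GS and 6916, 5459 and 5655 in NO (log2 fold change -0.43, adjusted p of 0.084 in limma). The 6 members around the mRNA channel of the 40S had medians of -0.056, -0.19 and -0.21, with 0 called by limma. Of these 6, 1 was lower at an unadjusted p under 0.05 in NO against GS, beside 14.6% of all genes. Among them Rps3, a protein of the mRNA entry site, had 30351, 29986 and 33815 in GS and 29121, 29304 and 34769 in NO, and the values overlapped.

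A second pattern ran within the media. Replicates differed by far more than sampling noise, and the members differed more than other abundant genes did. In DM the median SD of the members on the log2 scale was 0.335, against 0.169 for the 4375 other genes with a mean above 1000, and in GS it was 0.191 against 0.127. In NO it was 0.248 against 0.2. In DM, 15 members (17.6%) differed more than 2-fold between the highest and the lowest sample, against 4.39% of the other abundant genes, and in GS it was 6 members (7.06%) against 1.83%. In NO, by contrast, it was 6 members (7.06%) against 8.27%.

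Rps2 was the extreme, with 84296, 64362 and 62115 in GS, 35051, 68436 and 256447 in DM and 50769, 80548 and 124777 in NO. Its highest DM value was 7.32 times the lowest, and its log2 fold change in DM against GS of 0.29 ± 0.57 had an adjusted p of 0.833 (limma). Rps27 had 4030, 5506 and 17397 in DM, and 8700, 6885 and 5595 in GS. Rps12 and Rps26, both 40S proteins, were chosen for their spread after the values had been seen. Rps12 had 21511, 13100 and 9130 in GS and 9408, 9141 and 24732 in DM. Rps26 had 10937, 8103 and 4837 in GS and 4963, 4834 and 13959 in DM. In each of these 4 genes DM replicate 3 was the highest DM sample and GS replicate 1 the highest GS sample. Rpl39 and Rps3a2 went the other way. Rpl39 was lowest in DM replicate 3 among the 9 samples, at 1444, and Rps3a2 had 51 in GS replicate 1 against 187 in GS replicate 3.

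The departures of a sample from the mean of its medium were therefore compared across the 85 members, as a description without a test, since genes are not independent replicates and each medium has only 3 samples whose departures sum to 0. Pearson's r was 0.69 between GS replicate 1 and DM replicate 3 and 0.719 between GS replicate 3 and DM replicate 1. Between GS replicate 1 and DM replicate 1 it was -0.704, and between GS replicate 3 and DM replicate 3 it was -0.688. Between NO replicate 1 and DM replicate 1 it was 0.691. Over the 17867 other tested genes with a GC content, the same pairs had r of 0.222, 0.221, -0.183, -0.233 and 0.158. Of all 27 pairs of samples of different media, 25 had the same sign over the members and over the other genes, but r over the other genes was weaker, between -0.233 and 0.296. GS replicate 1 and NO replicate 2 had r of 0.57 over the members and 0.0084 over the other genes, and DM replicate 3 and NO replicate 2 had 0.42 and -0.0993. The samples of GS and DM that departed alike carried different replicate numbers in GS and DM.

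These departures varied with GC content. Across the 85 members, whose transcripts have 40.58% to 60.84% GC, r between GC content and the departure of a sample was 0.326, 0.186 and -0.351 in GS replicates 1, 2 and 3, -0.279, -0.292 and 0.416 in DM and -0.339, 0.252 and 0.181 in NO. Over the other tested genes the sign was the same in all 9 samples, with r between -0.322 in GS replicate 3 and 0.333 in DM replicate 3. With transcript length r lay between -0.187 and 0.166 across the members, and with the share of windows found in other genes between -0.13 and 0.136. The labels name no batch, and the origin of these departures was not tested. When a smooth trend on GC content was removed from each sample, 14 members were called in NO against GS, all lower, in place of 4, which is 16.5% of the members where 9.94% of all genes and 20.7% of the genes with a mean above 1000 were called lower in that fit. Rpl30, Rpl22 and Rpl22l1 remained among them, Rps15a did not, and Rpl7l1 and Rpl8 were called lower in both NO against GS and NO against DM.

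**Figure D4:**
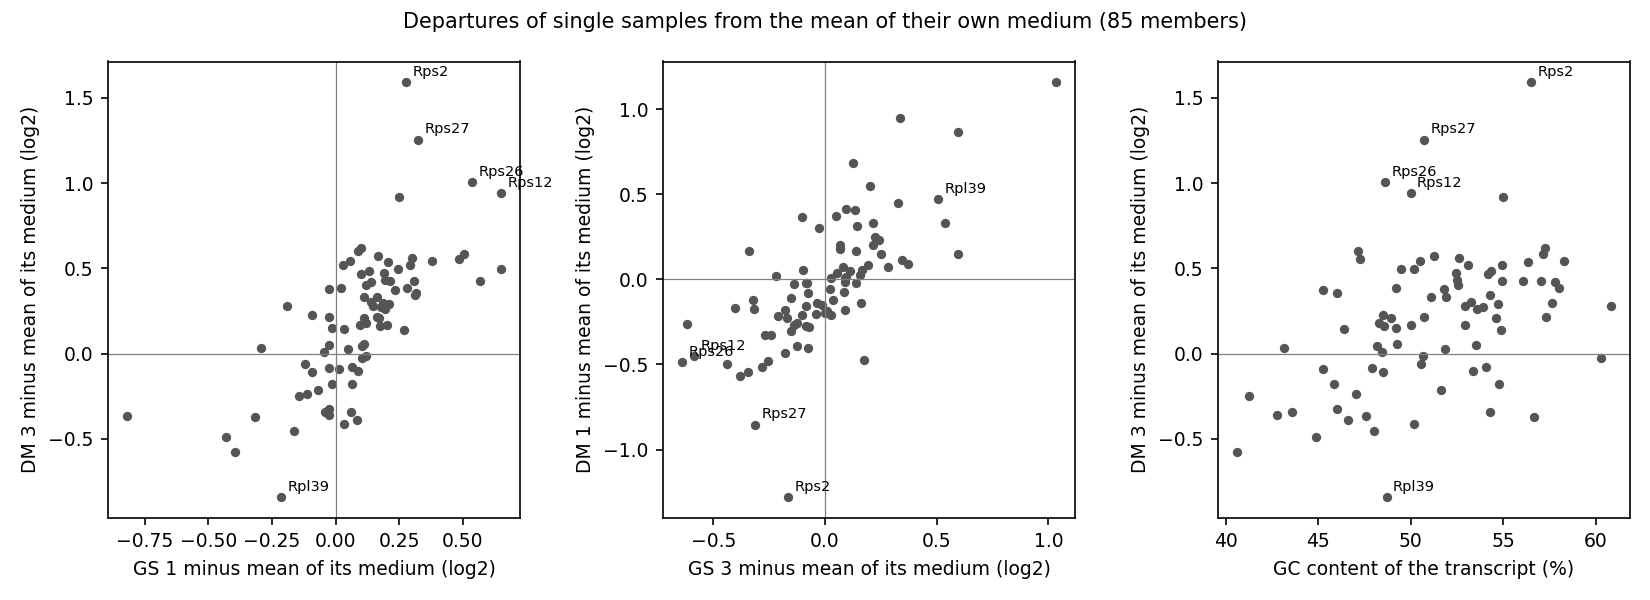
Departures of single samples from the mean of their own medium on the log2 scale, 1 point per member, for DM replicate 3 against GS replicate 1 (r of 0.69), DM replicate 1 against GS replicate 3 (r of 0.719) and DM replicate 3 against the GC content of the transcript in percent (r of 0.416). In the first panel Rps2, Rps27, Rps26 and Rps12 have the highest departures in DM replicate 3 and Rpl39 the lowest, and in the second panel Rps3a2 is highest in both samples (1.16 and 1.04).

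The members were also divided by the TOP start described above. The 13 members with the motif had medians of -0.16, -0.44 and -0.28 in DM against GS, NO against GS and NO against DM, with 12 below 0 and 1 called (Rps15a) in NO against GS. The 50 members with an entry but no such start had medians of -0.11, -0.36 and -0.18, with 44 below 0 and 2 called (Rpl22 and Rpl22l1) in NO against GS. In NO against GS the medians were -0.28 with and -0.21 without the motif when NO replicate 2 was left out. The difference between the 2 sets was not tested. Members that shared 50% or more of their windows with other genes had a median of -0.41 in NO against GS (49 members), and those that shared fewer had a median of -0.31 (36 members), or -0.24 and -0.19 without NO replicate 2.

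Around the members, genes of the same pathway were examined as lists. Of 16 translation factors and companions whose mRNAs are known for the TOP motif, 6 were called lower in NO against GS and 2 in NO against DM, with medians of -0.51 and -0.33, beside -0.18 and -0.13 for all genes with a mean above 1000. Of those abundant genes 13.6% and 9.85% were called lower. The fit without NO replicate 2 gave 3 and 1 calls and medians of -0.28 and -0.17, where 7.32% and 4.49% of the abundant genes were called lower. Eef1d, a subunit of elongation factor 1, had 9052, 9246 and 8668 in GS, 9779, 8586 and 7777 in DM and 6651, 5158 and 5455 in NO. All NO values lay below all others, with log2 fold changes of -0.65 ± 0.14 against GS (adjusted p of 0.00899) and -0.60 ± 0.14 against DM (adjusted p of 0.02, limma), the last 0.0509 without NO replicate 2. Eif4b, a cofactor of the helicase that unwinds mRNA leaders, had 15254, 14967 and 14870 in GS, 15807, 14546 and 14105 in DM and 10947, 8051 and 10310 in NO, and fell by 0.63 and 0.61 on the log2 scale against GS and DM (adjusted p of 0.0114 and 0.0202, limma). Nap1l1, a histone chaperone, and Npm1, a nucleolar chaperone, were called lower in NO against GS with log2 fold changes of -0.63 and -0.87, the latter -0.66 and not called without NO replicate 2. In DM against GS the list had 0 calls by limma, 1 gene lower at an unadjusted p under 0.05 (8.65% of all genes were) and a median of -0.18.

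Of 42 ribosome biogenesis factors, which make and process ribosomal RNA and assemble the subunits, 12 were called lower in NO against GS and 12 in NO against DM, with 0 higher in either, that is 28.6% in each, where 6.64% and 5.24% of all genes and 13.6% and 9.85% of the abundant genes were called lower. The calls were 6 and 3 without NO replicate 2. Over all genes, calls in either direction went from 3640 and 2587 of 18156 to 2388 and 1309 of 17893 in that fit. The medians of the list were -0.43 and -0.38 (-0.30 and -0.29 without NO replicate 2), and 40 of 42 were below 0 in each. In DM against GS the median was -0.041, and 0 were called by limma, with 2 higher at an unadjusted p under 0.05, beside 11.2% of all genes. Ncl (nucleolin) had 26880, 27025 and 29179 in GS, 25539, 27295 and 22461 in DM and 18894, 13736 and 17262 in NO. Fbl, the methyltransferase of ribosomal RNA, had 3651, 3496 and 3866 in GS, 3312, 2790 and 3835 in DM and 2556, 1788 and 2294 in NO. The NO values of both lay below all others, with log2 fold changes against GS of -0.75 ± 0.16 (adjusted p of 0.00809) and -0.74 ± 0.16 (adjusted p of 0.00868, limma). Dkc1, the pseudouridine synthase, and Pes1, a factor of 60S assembly, were called lower in both comparisons with NO, and without NO replicate 2 Dkc1 was called against GS alone and Pes1 against DM alone. The medians of members and biogenesis factors in NO against GS stood at -0.36 and -0.43, with 4 of 85 and 12 of 42 called, and the difference between the lists was not tested.

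Mitochondrial ribosomal proteins, which build the separate ribosome of that organelle, had a median of 0.020 in DM against GS, -0.25 in NO against GS and -0.24 in NO against DM over 75 tested genes. The calls were 3 in NO against GS and 6 in NO against DM, all lower (4.00% and 8.00%), and 1 and 0 by limma without NO replicate 2. In the fit without that sample 2388 and 1309 of 17893 genes were called in either direction, against 3640 and 2587 of 18156 in the main fit. In the main fit 6.64% and 5.24% of all genes, and 13.6% and 9.85% of those with a mean above 1000, were called lower. Mrps30 had 1131, 968 and 1230 in GS and 812, 751 and 744 in NO (log2 fold change -0.52, adjusted p of 0.0181), and Mrpl42 had 1594, 1596 and 1453 in GS and 1208, 999 and 1035 in NO (-0.52, adjusted p of 0.0235, limma). Mrpl24 had 1757, 1471 and 1792 in DM and 1281, 932 and 1106 in NO, and Mrpl15 had 3330, 2729 and 2816 in DM and 2383, 1425 and 1957 in NO, and both were called lower in NO against DM. In each of these pairs of groups the values did not overlap.

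Of 14 genes of RNA polymerase I and its factors, which transcribe ribosomal RNA, Cd3eap was called lower (log2 fold change -0.61) and Polr1e higher (0.58) in NO against GS, and Polr1b and Polr1c were called lower in NO against DM (-0.60 and -0.49). Cd3eap alone was called without NO replicate 2, where 2388 and 1309 of 17893 genes were called in NO against GS and NO against DM. In the main fit 6.64% of all genes were called lower and 13.4% higher in NO against GS, and 5.24% lower in NO against DM. The medians were 0.043, -0.15 and -0.19 in DM against GS, NO against GS and NO against DM. Of 12 genes of the mTOR pathway and of TOP control, 0 were called by limma in any comparison, with 2 lower at an unadjusted p under 0.05 in NO against GS and 2 in NO against DM. At that threshold 14.6% and 13.7% of all genes were lower. Larp1 had 2655, 2441 and 2135 in GS and 2080, 1798 and 1658 in NO (log2 fold change -0.39, adjusted p of 0.086), Eif4ebp1 had a log2 fold change of -0.36, Larp4 of -0.52 and Mtor of -0.14. Of 184 ribosomal protein pseudogenes in the table, 72 were tested and 0 were called by limma in NO against GS. Of the 72, 4 were lower at an unadjusted p under 0.05, beside 14.6% of all genes, and the median was -0.25.

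Of 10 targets of p53, 5 were called higher in NO against GS and 6 in NO against DM, where 13.4% and 9.01% of all genes were called higher, and the medians were 0.70 and 0.83. The calls were 5 and 4 and the medians 0.43 and 0.56 without NO replicate 2. Over all genes, calls in either direction went from 3640 and 2587 of 18156 to 2388 and 1309 of 17893 in that fit. In DM against GS the median of the list was -0.13. Mdm2 had 2408, 2724 and 2889 in GS, 2409, 2199 and 1803 in DM and 4420, 15166 and 6474 in NO. Ccng1 had 5284, 5762 and 7151 in GS and 8339, 15078 and 11496 in NO, and Trp53inp1 had 6124, 6156 and 8056 in GS and 9356, 18380 and 12154 in NO. In each of these 3 genes NO replicate 2, in which 47 of the 85 ribosomal protein genes had their lowest value, was the highest sample. Cdkn1a had a log2 fold change of -1.15 in DM against GS and was called lower there. It had 2535, 4859 and 3663 in NO, and its log2 fold changes were -0.024 against GS and 1.13 against DM.

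**Figure D5:**
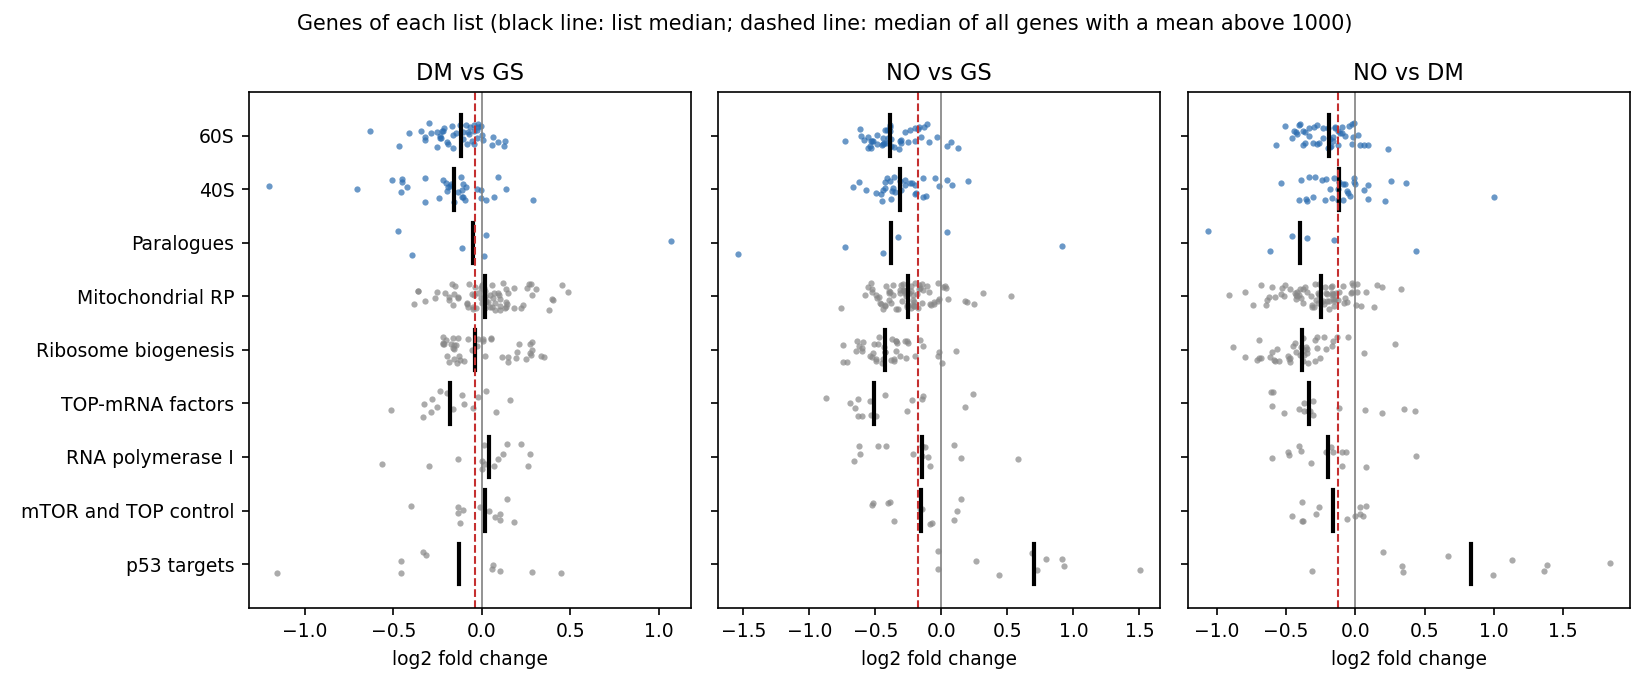
Log2 fold changes of the genes of each list in the 3 comparisons (points, blue for the cytosolic ribosomal protein genes), with black lines at the median of a list and a dashed red line at the median of all genes with a mean above 1000. In NO against GS the medians are -0.39 for the 60S, -0.31 for the 40S, -0.43 for ribosome biogenesis and 0.70 for p53 targets, beside -0.18 for abundant genes.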

How the data were processed

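Total RNA of mESC in GS, DM and NO (3 samples each) had been depleted of ribosomal RNA and sequenced on an Ion Torrent Proton. Per the methods of the study and the submitters' processing notes, the authors checked reads with FastQC 0.11.2, trimmed them, aligned them with STAR 2.4.0a to the mouse genome (GRCm38, mm10) and counted reads over exons with featureCounts 1.4.5-p1, leaving out ambiguous reads. The deposited values are a score per gene, namely counts that the authors divided by DESeq2 size factors and rounded to whole numbers. They are not raw counts, so no count model was fitted.

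After log2(value + 1) transformation, the 18156 genes whose mean exceeded 5 were tested with limma 3.58.1 in R 4.3.3: 3 media as groups, all 9 samples in 1 fit, no covariate, a mean-variance trend, two-sided tests and Benjamini-Hochberg adjustment over all genes tested. Genes with an adjusted p under 0.05 were called. Fold changes on this scale understate changes of low genes. The procedure was tested on simulated data. Depth, with 1 read worth between 0.701 and 1.32 normalised counts, was estimated from the spacing of low values. The spread between replicates exceeded sampling noise in every pair of replicates and sets the precision for abundant genes.

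The members and lists were chosen with earlier results of these data known. Named genes are the paralogues and their parents, up to 5 called members per comparison and direction with the smallest p (2 where none was called), members with known roles, the 2 highest and lowest per kilobase, and up to 4 genes of each other list with the smallest p. Some genes that this rule or the lists name are not reported here. Coordinates, lengths and shared windows come from GENCODE M21 (GRCm38), and start sites from RefSeq (GRCm38.p6).

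Replicate numbers recur in each medium. Departures from the means of the media correlated between same-numbered NO and DM samples at 0.159, 0.167 and 0.296 over all tested genes, each above a limit of 0.1. In DM against GS, samples of different number passed that limit too, namely DM replicate 3 with GS replicate 1 (0.22) and DM replicate 1 with GS replicate 3 (0.219). In NO against DM, by contrast, r between samples of different number lay between -0.223 and -0.025. The limit by itself therefore cannot show that the numbers pair samples, and whether NO and DM samples were paired is not known. A block on the replicate number changed no call of a member in NO against DM. Alternatives comprised the samples in the fit, the block, filters, pseudocounts, moderation, scalings, corrections for length and GC content, and leaving out each replicate. Trophoblast, primitive endoderm, fibroblast and ES cell markers were used as a check of the cells.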

Additional observations from a re-analysis of the deposited data

How the results depend on the processing

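The median of the 85 members stayed below 0 in each comparison under all settings except 1, and leaving out each replicate in turn gave medians from -0.22 to -0.056 in DM against GS, from -0.41 to -0.22 in NO against GS and from -0.25 to -0.076 in NO against DM. The exception was the fit without NO replicate 2 and DM replicate 3, chosen after the data had been seen, in which NO against DM gave 0.013. Quantile normalisation gave -0.16 in NO against GS. Leaving NO replicate 2 out of the lists and the row named Rpl24 out of the members were also chosen after the data had been seen. The counts of calls were less stable. Members called in DM against GS, 0 as reported, were 1 (Rpl30) with a minimum mean of 50, with a pseudocount of 5, with the GC correction and with only the 6 samples compared. Over all genes these settings gave 990 of 12395, 1208, 1305 and 1816 calls in either direction, against 1215 of 18156 as reported. In NO against GS, 4 as reported became 9 under the replicate block, 2 when no gene was filtered out, 1 when moderation used no mean-variance trend, 1 with equal totals, 1 with quantile normalisation, 14 with the GC correction and 1 with a 2-fold minimum. The calls over all genes were 3640 of 18156 as reported, 3386 under the block and 3221 of 29069 with no filter. They were 2819 without the trend, 3632 with equal totals, 3121 with quantile normalisation and 4324 with the GC correction. In NO against DM, 0 as reported became 2 with the GC correction, where the calls over all genes went from 2587 to 3386. Members that differed among the 3 media, 1 as reported, were 3 with the length correction, with or without the block, and 7 with the GC correction. Of all genes, 4227 differed as reported, 4072 and 4530 with the length correction with and without the block, and 4980 with the GC correction. Without NO replicate 2 and DM replicate 3 these 4 counts were 3, 7, 1 and 7, beside 1654, 3322, 1429 and 3736 of 17902 genes. The 1 call in NO against DM there (Rps19) was higher in NO, and of the 7 in NO against GS, 6 were lower and Rpl3l was higher. Leaving out each replicate in turn gave 0 to 1 calls in DM against GS, 1 to 16 in NO against GS, 0 to 3 in NO against DM and 1 to 11 among the 3 media. The highest counts came without NO replicate 1 (16, 3 and 11), 9 calls in NO against GS and 5 among the 3 media came without DM replicate 3, and 2 in NO against GS came without NO replicate 2 (Rpl30 lower and Rpl3l higher). The calls over all genes also rose without NO replicate 1, to 5006, 4330 and 5715 of 18171. Without DM replicate 3 they were 3962 and 3645 of 18185, and without NO replicate 2 they were 2388 of 17893. Without any single GS replicate, 1 or 2 calls remained in NO against GS, where between 2048 and 2324 of all genes were called. Fewer samples are part of the construction of these fits, and the cause of the other differences was not tested.

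The block in NO against GS and DM against GS has no support from the departures, which correlated at -0.106 to 0.05 and at -0.232 to 0.022 between samples of the same number, and it left 0 calls in DM against GS. Over the 28 named members in the 3 comparisons, 1932 alternative values were computed, of which 1874 stayed on the same side of the threshold, 34 lost a call and 24 gained one, and 0 called values changed sign. Rpl30 in NO against GS was called in 23 of 23 alternatives (adjusted p between 0.00144 and 0.017, limma), Rps15a in 14, Rpl22 in 13 and Rpl22l1 in 8. The 3 samples per medium and the spread between them limit which differences of this size can be told from 0, and the depth does not limit abundant members, unlike Rpl3l and Rps3a2.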
